A study of Mus musculus with 2 samples.

Results

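The Mir322, Mir503 and Mir450 cluster is a group of microRNA genes lying close together on the mouse X chromosome, on the minus strand. Its members were chosen by name, as the rows whose Ensembl identifier carries 1 of 9 symbols of this locus in GENCODE release M21. Of these, 7 were present, namely Mir322, Mir503, Mir351, Mir542, Mir450-2, Mir450-1 and Mir450b, among 1973 microRNA genes in the table. Mir450a-1 and Mir450a-2 were not in that annotation under those symbols. RefSeq lists mir-450a-1 and mir-450a-2 as other names of Mir450-1 and Mir450-2.

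Small RNA below 30 nucleotides was sequenced from the midbrain of mouse embryos of strain B6NCrl at embryonic day 12.5. There were 2 libraries, from tissue pooled over 120 embryos in replicate 1 and over 88 embryos in replicate 2, with males and females mixed and no allele or agent named in the labels. They form a single group, so no conditions were compared, and both pools carry the same donor label. In such whole tissue, fewer cells of a type and less RNA per cell cannot be told apart.

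MicroRNAs are cut from hairpins in longer transcripts, and each mature strand finds its targets mainly by its seed, here bases 2 to 8. Mir322 (whose human counterpart is known as miR-424) and Mir503 belong to the wider miR-15/16 family, which is known for lowering cyclins and other proteins that drive cells from G1 into S phase. They are best known from differentiating muscle and from vascular cells, where they slow division. Mir351 carries the seed of the miR-125 family, known from neural differentiation, and miR-542-3p is known for lowering the survival protein survivin.

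The mature sequences show which members are alike, and so which other genes their levels should be read against. They are from RefSeq (GRCm38.p6), which gave mature sequences for all 7 members, 14 in all and 13 of them distinct, and are written 5′ to 3′ with the seed in capitals. First, the 2 cluster members of the miR-15/16 type stand with relatives encoded elsewhere in the genome.
miR-322-5p: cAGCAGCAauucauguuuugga
miR-503-5p: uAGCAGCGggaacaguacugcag
miR-15a-5p: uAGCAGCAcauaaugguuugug
miR-16-5p: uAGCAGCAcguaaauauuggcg
miR-195a-5p: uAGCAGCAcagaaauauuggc
miR-497a-5p: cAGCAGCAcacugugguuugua
The seed of miR-322-5p, AGCAGCA, was found in the mature sequences of 11 RefSeq genes, the miR-15/16 genes among them. The seed of miR-503-5p, AGCAGCG, was found in Mir503 alone among the 1058 genes with a mature sequence in that table. From their 5′ ends, miR-322-5p and miR-497a-5p were identical over 8 bases, and miR-503-5p and miR-16-5p over 7.

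Mir351 and the miR-125 sequences share a seed and differ after it.
miR-351-5p: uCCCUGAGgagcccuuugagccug
miR-125a-5p: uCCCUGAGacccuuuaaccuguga
miR-125b-5p: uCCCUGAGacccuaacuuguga
Over their 24 positions, miR-351-5p and miR-125a-5p were identical at 10, the first 8 of these in an unbroken run from the 5′ end.

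The members farther along the locus carry other seeds, and the Mir450 genes show why their counts need care.
miR-542-3p: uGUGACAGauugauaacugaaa
miR-450a-5p: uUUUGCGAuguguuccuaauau
miR-450b-5p: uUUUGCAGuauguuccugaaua
miR-450a-1-3p: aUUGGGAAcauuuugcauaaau
miR-450a-2-3p: aUUGGGGAugcuuugcauucau
miR-450b-3p: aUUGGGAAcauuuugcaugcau
The sequence of miR-450a-5p is the same in Mir450-1 and Mir450-2, whose hairpins share a run of 25 bases. Reads that aligned to several places were kept in a row of their own and given to no gene, so reads of miR-450a-5p that fit both copies are missing from these genes' counts. Mir450b shared a run of 19 bases with Mir450-1, while no other member shared more than 13 bases with any annotated microRNA hairpin at another place.

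On mm10 the cluster spans chrX:53047997-53054349, which is 6353 bases. In the direction of transcription Mir322 comes first, at chrX:53054255-53054349, followed after 200 bases by Mir503 at chrX:53053984-53054054 and after another 630 bases by Mir351 at chrX:53053255-53053353. A gap of 3767 bases separates these from Mir542 at chrX:53049403-53049487. After 1035 more bases come Mir450-2 at chrX:53048299-53048367, Mir450-1 at chrX:53048154-53048244 and Mir450b at chrX:53047997-53048078, set 54 and 75 bases apart. In GENCODE M21 none of the 7 hairpins overlaps another annotated gene. The non-coding C430049B03Rik ends before Mir322, and the lincRNA Gm28730 lies between Mir351 and Mir542. RefSeq draws C430049B03Rik longer, at chrX:53053112-53057190, with Mir322, Mir503 and Mir351 inside it.

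Levels were taken as counts on the gene's own strand per 1000000 such counts in the library (CPM). The libraries held 4629302 and 2805487 own-strand counts, so that 3 counts, the limit that a count of 0 allows, correspond to 0.648 and 1.07 CPM. All 7 members had at least 10 counts in both libraries and were among the 380 genes called quantified. None had any read on the opposite strand. The counts are per hairpin and do not separate its 2 arms. They were not corrected for differences between sequences in how readily they are captured and copied in a library. Levels of different genes are therefore compared as counted, and the intervals below do not cover such differences.

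The cluster as a whole held 1.75% ± 0.19 of assigned counts (SD, n = 2). In replicate 1 this came to 1.61%, with 1.602 to 1.625% as its 95% Wilson interval, and in replicate 2 to 1.88%, with 1.869 to 1.901%. Such intervals cover counting error only, and not variation between pools or library preparations. Reads copied by PCR are not independent molecules, so the intervals may be too narrow even for counting error. The cluster made up 33.8% of all counts from X-linked microRNA genes in replicate 1 and 37.5% in replicate 2, over 120 such genes in the table.

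As counted, Mir322 dominated the cluster. Its 57012 counts in replicate 1 gave 12315 CPM and its 41672 counts in replicate 2 gave 14854 CPM, a mean of 13585 ± 1795 CPM (SD, n = 2). That placed it 18th among all genes and first among those on the X chromosome. Of the cluster's counts it held 76.3% in replicate 1, with 95% Wilson bounds of 76.0 and 76.6%, and 78.8% in replicate 2, with bounds of 78.5 and 79.2%.

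Mir503, with its hairpin only 200 bases from that of Mir322, was far lower. Its 1427 counts in replicate 1 gave 308 CPM and its 887 counts in replicate 2 gave 316 CPM. Mir322 counts were thus 40.0 times those of Mir503 in the first library and 47.0 times in the second. Both hairpins lie in the same RefSeq locus, C430049B03Rik.

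Mir351 was the second member in level, although it lies beyond Mir503. Its 14144 counts in replicate 1 gave 3055 CPM and its 9006 counts in replicate 2 gave 3210 CPM, and by mean CPM it ranked 60th among all genes and 5th among X-linked genes. It took 18.9% of the cluster's counts in replicate 1 and 17.0% in replicate 2. With Mir322 it accounted for most of what the cluster contributed, while the other 5 members each held under 2.1% in either library.

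Mir542, at the far side of the long gap, stood at 335 CPM in replicate 1 (1553 counts) and 347 CPM in replicate 2 (973 counts), close to Mir503. In CPM Mir542 was the higher of them in both libraries, with 95% Wilson intervals in replicate 1 of 319 to 353 CPM for Mir542 and 293 to 325 CPM for Mir503. Per 100 bases of hairpin their order turned round, with 401 ± 9.44 CPM for Mir542 and 440 ± 7.88 CPM for Mir503 (SD, n = 2). Which of Mir542 and Mir503 was higher thus depended on whether CPM was divided by hairpin length. The RNA sequenced was below 30 nucleotides, shorter than either hairpin (85 and 71 bases), so counts need not grow with hairpin length.

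The Mir450 genes were the lowest. Mir450b had 106 CPM in replicate 1 (491 counts) and 107 CPM in replicate 2 (301 counts). Mir450-1 had only 8.64 and 9.62 CPM, from 40 and 27 counts, and Mir450-2 had 3.24 and 4.99 CPM, from 15 and 14 counts. The pair of genes that share miR-450a-5p were therefore more than 10 times lower than Mir450b beside them, and their counts leave out reads that fit both. In replicate 1 the intervals of Mir450-1 and Mir450-2 were apart, at 6.35 to 11.8 CPM and 1.96 to 5.35 CPM. In replicate 2 they overlapped, at 6.61 to 14.0 CPM and 2.97 to 8.38 CPM.

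**Figure D1:**
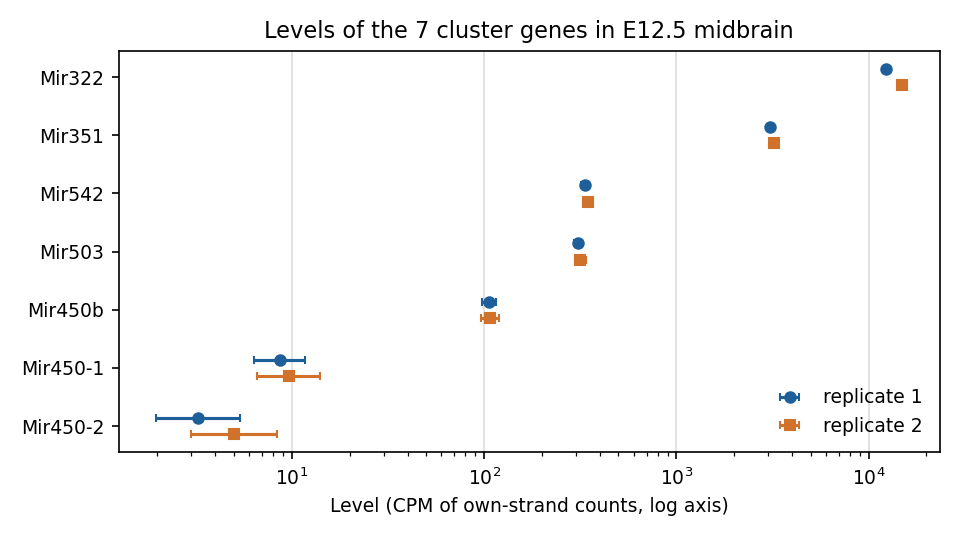
The horizontal log axis gives the level in CPM of own-strand counts for each of the 7 genes, with circles for replicate 1, squares for replicate 2 and bars for the 95% Wilson interval of counting error. Levels run from 13585 CPM for Mir322 to 4.12 CPM for Mir450-2 (means of both libraries), and the libraries lie close together for every gene but Mir322 and the sparsely counted Mir450-2.

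From highest to lowest the order in CPM was Mir322, Mir351, Mir542, Mir503, Mir450b, Mir450-1 and Mir450-2, in both libraries. Per 100 bases of hairpin the means were 14300, 3164, 401, 440, 130, 10.04 and 5.96 CPM in that same order. As counted, level did not follow position along the locus. Of the first 3 hairpins the middle one was the lowest, and of the last 4 it was the outermost 2, Mir542 and Mir450b, that were higher. The inner ones, Mir450-2 and Mir450-1, lack the reads that fit both, so their levels may be too low.

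**Figure D2:**
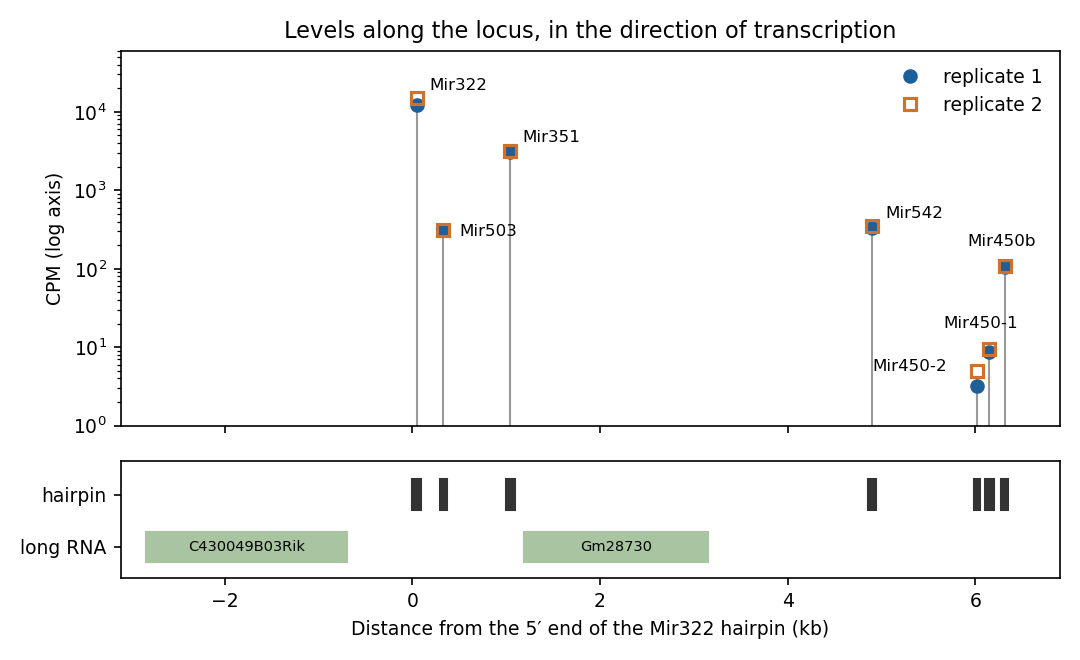
The upper panel plots CPM (log axis) of each hairpin against its distance in kb from the 5′ end of Mir322, in the direction of transcription, with circles for replicate 1 and open squares for replicate 2. The lower panel draws the hairpins and the GENCODE long non-coding genes to scale, and shows the low Mir503 between the high Mir322 and Mir351, and the low Mir450-2 and Mir450-1 between Mir542 and Mir450b. Reads that fit both Mir450-2 and Mir450-1 are not counted.

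The spread within the locus was set beside 2 other clusters of microRNA genes. The Mir17hg cluster on chromosome 14 and the X-linked Mir106a cluster encode relatives of miR-17, known from dividing cells. Comparing only genes whose hairpins share under 20 bases with another hairpin, the count of the highest member exceeded that of the lowest 116-fold in replicate 1 and 138-fold in replicate 2 here (Mir322 over Mir450b, 5 genes). The same ratio was 495-fold and 344-fold in the Mir17hg cluster (Mir17 over Mir19a, 4 genes). In the Mir106a cluster it was 13.4-fold and 11.9-fold (Mir106a over Mir18b, 4 genes). A single gene held 76.4% and 78.9% of those counts here, 65.1% and 66.3% in the Mir17hg cluster (Mir17), and 45.6% and 42.8% in the Mir106a cluster (Mir106a). The difference between clusters was not tested.

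Among genes of its seed, Mir322 was the most abundant as counted. Mir15a, of the pair that gave the family its name, had 5408 CPM in replicate 1 and 5707 CPM in replicate 2, and its cluster neighbour Mir16-1 had 3321 and 3204 CPM. Mir15b had 1958 and 2175 CPM, Mir16-2 had 807 and 671 CPM, and Mir195a had 473 and 559 CPM. Mir322 was above Mir15a, the next highest as counted, in both libraries, and per 100 bases of hairpin its mean of 14300 CPM compared with 6616 CPM for Mir15a.

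Mir322 held 50.7% of the counts of Mir322 and the miR-15/16 list in replicate 1, with 95% Wilson bounds of 50.4 and 51.0%, and 54.7% in replicate 2, with bounds of 54.3 and 55.0%, a mean of 52.7% ± 2.79 (SD, n = 2). Mir503 added 1.25% and 1.15% once it was put into the same total. The list total is incomplete, because the hairpins of Mir16-1 and Mir16-2 share 23 bases, and reads that fit both are not counted. The sequence of miR-16-5p is the same in both, so the rank and share of Mir322 may be too high. Mir497 has no row in the table. Its place lies opposite Mir497b, and when opposite-strand reads were included as well, Mir322 had a mean share of 51.4%. Of the other listed genes, Mir195b had no counts, and Mir497b, whose own mature sequence has a different seed, had 7 counts in replicate 1 and 1 in replicate 2.

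As counted, Mir351 was second among the genes of the CCCUGAG seed. Mir125a had 4626 CPM in replicate 1 and 6199 CPM in replicate 2, Mir125b-1 had 2198 and 2471 CPM, and Mir125b-2 had 1330 and 1298 CPM. Mir351 held 27.3% of the counts of these 4 genes in replicate 1, with 95% Wilson bounds of 26.9 and 27.6%, and 24.4% in replicate 2, with bounds of 23.9 and 24.8%. Here too the total is incomplete, since the hairpins of Mir125b-1 and Mir125b-2 share 24 bases. The sequence of miR-125b-5p, which carries the seed, is the same in both, and reads that fit both are not counted. The rank and share of Mir351 may therefore be too high. Per 100 bases of hairpin the order was the same, with means of 7959 CPM for Mir125a, 3164 CPM for Mir351, 3032 CPM for Mir125b-1 and 1851 CPM for Mir125b-2.

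**Figure D3:**
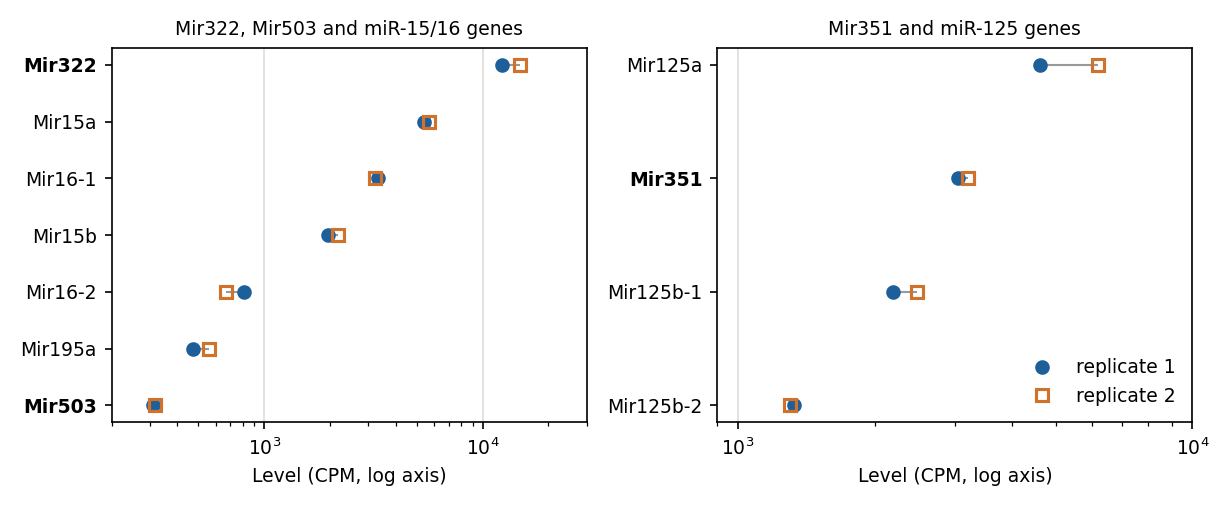
Each row is a gene, with its level in CPM (log axis) in replicate 1 (circle) and replicate 2 (open square), and cluster genes are in bold. As counted, Mir322 lies above the 5 quantified miR-15/16 genes while Mir503 lies below them, and Mir351 lies between Mir125a and Mir125b-1. Reads that fit both Mir16-1 and Mir16-2, or both Mir125b-1 and Mir125b-2, are not counted.

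The replicates were then compared gene by gene, setting the count of each gene against the remaining counts of its library in Fisher's exact test (two-sided), and p-values were adjusted by Benjamini-Hochberg over the 380 quantified genes. Such a test sets these libraries against counting noise and compares no conditions. Of the 7 members, 2 were called higher in replicate 2 and none was called lower. Over all quantified genes 54.2% were called, 27.1% higher and 27.1% lower. No member differed by 1.5-fold and was called, against 13.9% of all quantified genes. The members' median log2 ratio, replicate 2 over replicate 1, was 0.07, and that of all quantified genes was 0.04.

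Mir322 had the largest difference among the members called. It was 1.21-fold higher in replicate 2, with a log2 ratio of 0.27 ± 0.01 (counting SE, Fisher's exact test with Benjamini-Hochberg adjustment, adjusted p = 4.74e-185). That size is near the usual gap between these libraries, since the median absolute log2 ratio was 0.235 over all quantified genes and 0.188 over those of at least 1000 CPM. Mir351 had a log2 ratio of 0.07 ± 0.02 and was also called (adjusted p = 0.00058, same exact test). With DESeq2 size factors that call was lost (log2 ratio 0.04, adjusted p = 0.109 by the exact test), as it was with all reads as the total (0.03, adjusted p = 0.264 by the exact test).

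The other 5 members were not called, and the smallest unadjusted p among them was 0.254 (Fisher's exact test). Log2 ratios were 0.05 ± 0.06 for Mir542, 0.04 ± 0.06 for Mir503 and 0.02 ± 0.11 for Mir450b (counting SE). Mir450-1 had 0.16 ± 0.36 and Mir450-2 had 0.62 ± 0.54, and at their few counts a difference of this size was not detectable. The direction of Mir450b turned negative with DESeq2 size factors and with all reads as the total (-0.019 and -0.028), and that of Mir503 with all reads as the total (-0.0084).

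**Figure D4:**
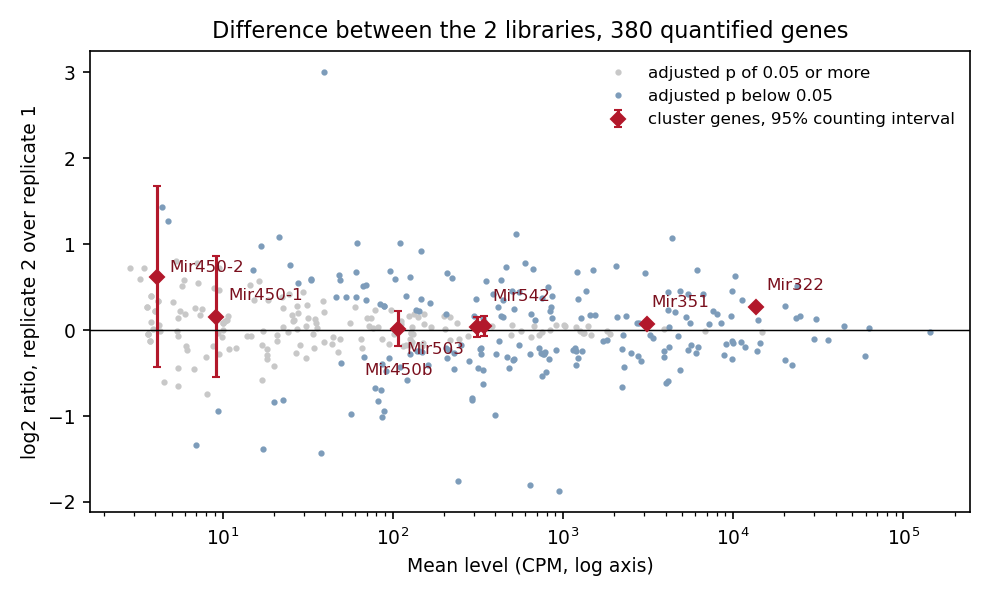
For each of the 380 quantified genes the log2 ratio of replicate 2 over replicate 1 is plotted against the mean level in CPM (log axis), in grey where the adjusted p was 0.05 or more and in blue below it. Red diamonds are the cluster genes with approximate 95% counting intervals. Mir322 lies at 0.27, and Mir351, Mir542, Mir503 and Mir450b lie between 0.02 and 0.07. The bars of all cluster genes but Mir322 and Mir351 cross 0.

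Ratios within a library do not depend on its scaling. The log2 ratio of Mir322 to Mir351 counts was 2.01 in replicate 1 and 2.21 in replicate 2, a difference of 0.20 ± 0.02 (counting SE). For Mir322 over Mir542 the difference was 0.22 ± 0.06, over Mir503 0.23 ± 0.06 and over Mir450b 0.25 ± 0.11. Mir351, by contrast, stood at 9.11 times Mir542 in replicate 1 and at 9.26 times in replicate 2. Over Mir450-1 and Mir450-2 the difference was 0.11 ± 0.36 and -0.35 ± 0.54, within counting error. The sum of the 6 members other than Mir322 was 3817 CPM in replicate 1 and 3995 CPM in replicate 2.

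As counted, the genes of the same seeds differed between the libraries in both directions. Of the 5 quantified miR-15/16 genes, 3 were called higher in replicate 2 and 2 lower, with a median log2 ratio of 0.08. The values were 0.24 ± 0.05 for Mir195a, 0.15 ± 0.02 for Mir15b, 0.08 ± 0.01 for Mir15a, -0.05 ± 0.02 for Mir16-1 and -0.27 ± 0.04 for Mir16-2 (counting SE). Of the 3 miR-125 genes, Mir125a (0.42 ± 0.01) and Mir125b-1 (0.17 ± 0.02) were called higher and Mir125b-2 (-0.03 ± 0.03) was not called. The only genes called lower, Mir16-1 and Mir16-2, both encode miR-16-5p, and reads that fit both are not counted. The same limit holds for miR-125b-5p in Mir125b-1 and Mir125b-2. Mir15a, Mir15b, Mir195a and Mir125a, whose hairpins share under 20 bases with any other, were all called higher.

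The 2 other X-linked clusters summed here, those of Mir106a and Mir221, had lower sums in replicate 2. The Mir106a cluster summed to 11445 CPM in replicate 1 and 8191 CPM in replicate 2, with Mir106a (log2 ratio -0.62 ± 0.02), Mir20b (-0.66 ± 0.02), Mir363 (-0.26 ± 0.02) and Mir18b (-0.44 ± 0.06) called lower, and Mir92-2 (-0.02 ± 0.04) and Mir19b-2 (0.09 ± 0.34) not called. The hairpin of Mir92-2 shares 22 bases with Mir92-1, and that of Mir19b-2 shares 25 with Mir19b-1. Reads that fit both copies are not counted, so this sum is incomplete. Of the pair Mir221 and Mir222, known from vessels and dividing cells, Mir221 was called lower (-0.45 ± 0.07) and Mir222 was not called (0.11 ± 0.10). All X-linked microRNA genes together gave 47745 CPM in replicate 1 and 50319 CPM in replicate 2, and of the 41 quantified ones 14 were called higher in replicate 2 and 11 lower. By the same rule 27.1% of all quantified genes were called higher and 27.1% lower. The sum over the Mir322 cluster went from 16132 to 18849 CPM, a log2 ratio of 0.22 ± 0.01 (counting SE).

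Among the 96 other genes with a mean of at least 1000 CPM, the 5 whose log2 ratio lay nearest to that of the summed cluster were Mir151 (0.22), Mir361 (0.23), Mir1983 (0.21), Mir21a (0.18) and Mir674 (0.18). Likeness here is the absolute difference in log2 ratio over 2 libraries, and was 0.004 for Mir151 and 0.04 for Mir674. Of these genes, Mir361 also lies on the X chromosome.

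Markers of cell types were read beside these values. The neural list summed to 8407 CPM in replicate 1 and 7598 CPM in replicate 2, with all 11 genes found having counts in both and Mir137 and Mir153 the highest. Of its 9 quantified genes, 3 were called lower (Mir137, Mir153 and Mir9-3) and 2 higher (Mir128-1 and Mir128-2), with a median log2 ratio of -0.014. The Mir124a copies were at most 14.9 CPM each, and 9 of the 11 neural genes share 20 bases with another hairpin, so their counts leave out reads that fit several copies. The mesenchymal list, led by Mir143 and Mir140 as counted, summed to 15707 CPM in replicate 1 and 23591 CPM in replicate 2, with 6 of its 7 genes called higher and 1 not called. Hairpin sharing was examined for no marker list but the neural one, so the other sums may leave out such reads too. Endothelial Mir126a had 23434 and 26243 CPM and was called higher (log2 ratio 0.16 ± 0.01, counting SE). The mesenchymal and endothelial lists were higher in the library where Mir322 was higher, as were the leukocyte and liver sums given below. The muscle sum differed only within counting error (log2 ratio 0.17 ± 0.14, counting SE). The neural, erythroid and choroid plexus sums were lower in replicate 2. Between 2 libraries any list goes up or down, and the part of these cells in the Mir322 difference was not tested. Over all quantified genes, 27.1% were called higher and 27.1% lower by the same rule.

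The muscle list, of interest because Mir322 and Mir503 are known from muscle, was low as counted. It summed to 55.9 CPM in replicate 1 and 63.1 CPM in replicate 2, led by Mir208b and Mir206. Mir1a-1, Mir133a-1 and Mir133a-2 had no counts, and none of the 4 quantified muscle genes was called, the lowest adjusted p being 0.29 by the exact test (Mir208a). Hairpin sharing was not examined for the muscle list, and reads that fit several places were given to no gene. A lack of counts in these genes therefore does not show that their microRNAs were absent. Erythroid markers, Mir451a and Mir144 the highest, summed to 413 CPM in replicate 1 and 271 CPM in replicate 2. Of these 3 genes Mir451a was called lower (log2 ratio -0.81 ± 0.07, counting SE), Mir486 was called higher (1.08 ± 0.24) and Mir144 was not called (0.20 ± 0.21). Leukocyte markers summed to 607 CPM in replicate 1 and 769 CPM in replicate 2, with 3 of 4 called higher, Mir223 among them (0.57 ± 0.06), and Mir155 called lower (-0.17 ± 0.07). The liver marker Mir122 gave 8.64 and 69.5 CPM and was called higher. The choroid plexus markers Mir449a and Mir204 summed to 2487 and 692 CPM, and both were called lower.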

How the data were processed

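Per the deposited read-me files, the authors counted reads per microRNA gene on mm10 with annotation M4 and deposited raw counts. The aligner was not given in the sources used here. Column meanings were read from the layout, which is that of STAR, and own-strand counts were used. Multimapping reads (33.4% of reads in each library) and other rows that name no gene (56.9% and 58.2% with them) were left out of totals and tests.

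Symbols and positions came from GENCODE M21 (1894 of 1973 identifiers matched) and mature sequences from RefSeq, both on GRCm38, the assembly of mm10. Genes with at least 10 counts in both libraries were quantified. Fisher's exact test (scipy 1.17.1) was called at an adjusted p of 0.05. It was checked on simulated counts with Poisson counting error only, and so not against variation between pools or reads copied by PCR. Alternatives were TMM (edgeR 4.0.16), DESeq2 1.42.0 size factors, other totals, either-strand counts, no filter, hairpin length and single libraries. Ratios of Mir322 to other members were added after seeing the data.

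Members and lists (miR-15/16, miR-125, the Mir106a, Mir221 and Mir17hg clusters, and markers of cell types) were chosen with earlier results of these data known. The text names the members, the genes of the seed and X-linked lists, the 5 genes of at least 1000 CPM nearest the cluster in log2 ratio, and the 2 highest genes of each marker list. Genes of the Mir17hg cluster, Mir124a, Mir128, Mir9-3, Mir208a, Mir486 and the muscle genes at 0 were named after their values were seen.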

Additional observations from a re-analysis of the deposited data

How the results depend on the processing

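The cluster's share of assigned counts, 1.75%, became 2.04% with Mir99a left out of the total and 0.741% with all reads of the file as the total. Both follow from the changed denominator. Its difference between the libraries kept its direction and stayed past the threshold under each of the 5 alternatives run, with log2 ratios from 0.18 to 0.22. The number of members called higher in replicate 2 fell from 2 to 1 with DESeq2 size factors and with all reads as the total, Mir351 being the call lost. Its counts were the same in these settings, which shifted the median log2 ratio of quantified genes by -0.035 and -0.045. Of 42 recomputed differences of single members, 37 kept direction and side of the threshold, 2 lost the threshold and 3 reversed. The reversed ones were Mir503 with all reads as the total (-0.0084), and Mir450b with DESeq2 size factors (-0.019) and with all reads as the total (-0.028), none of them called. The level of Mir542 minus that of Mir503 changed from 28.9 CPM to -38.4 CPM per 100 bases of hairpin. The share of Mir322 in its cluster, 77.6%, was 77.4% per 100 bases of hairpin. With reads of either strand its share of its seed list went from 52.7% to 51.4% and that of Mir351 stayed at 25.8%. Leaving out a library only returns the value of the other, given with each result. Counts of 14 to 40 limit what can be said of Mir450-1 and Mir450-2, and reads fitting both copies are missing. With 2 libraries of 1 group, no outlier could be tested. No paired analysis was possible because there is only 1 group.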
